A study of Mus musculus with 6 samples.

Results

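The genes described here are the small nucleolar RNA (snoRNA) genes with measurable RNA in mouse testis. Of the 1271 genes that the deposited table types as snoRNA, 103 reached 0.5 FPKM (the reads of a gene divided by its length and by the library's depth) in at least 3 of the 6 libraries, which is 8.10%. A further 259 had reads without reaching that level, and 909 had 0 reads. Male C57BL/6 mice were assigned at 6 weeks of age to a sedentary group (ST) or a control group (CT) for 10 weeks, and total testis RNA of 3 mice per group, called biological replicates by the labels, gave 1 library per mouse. A group with physical activity compensation is not analysed here. Ribosomal RNA was depleted before library construction, and how sedentary behaviour was imposed is not given in the sources used here.

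snoRNAs guide the chemical modification of other RNAs, mainly ribosomal RNA, by base pairing with the target. Box C/D snoRNAs, named for the C motif near their start and the D motif near their end, guide 2′-O-methylation and bind fibrillarin, Nop56, Nop58 and Snu13. Box H/ACA snoRNAs, which end in an ACA motif just before the last bases, guide pseudouridylation and bind dyskerin, Nop10, Nhp2 and Gar1. Most mammalian snoRNAs are cut out of introns of host genes, many of which encode ribosomal proteins or translation factors. The spermatogonia and spermatocytes of the testis make ribosomes that serve translation long after transcription stops in spermatids.

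The sequences of the members that the results below turn on are given first, from the GENCODE M21 transcripts of GRCm38, which held a model of equal symbol and equal length for 100 of the 103 genes. Capitals mark TGATGA (box C) found in the first 20 bases together with CTGA (box D) in the last 20, or, in sequences without that pair, an ACA placed 3 bases before the end. The first 5 are neighbours on chromosome 9, and Gm24357 is the only member that passed the test between the groups. Gm24357 and Gm24299 also hold the ACA, which is not marked, and in Gm24299 its first base is the last base of the marked box D. Gm24853 had the most reads of all members, and Snord104, Snord69, Snord89 and Snord100 are box C/D genes with contrasting values. Snora17, Gm23609 and Gm23698 belong to 1 family of similar sequences.
Gm24357 (chr9:15315522-15315595, plus strand): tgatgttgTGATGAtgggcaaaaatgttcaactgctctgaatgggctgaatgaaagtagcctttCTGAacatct
Gm24299 (chr9:15314074-15314144, plus strand): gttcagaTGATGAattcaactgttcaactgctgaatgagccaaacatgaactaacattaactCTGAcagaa
Gm24455 (chr9:15313802-15313932, plus strand): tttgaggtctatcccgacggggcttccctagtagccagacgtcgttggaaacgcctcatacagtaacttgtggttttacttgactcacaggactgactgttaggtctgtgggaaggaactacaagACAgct
Gm22620 (chr9:15315189-15315321, plus strand): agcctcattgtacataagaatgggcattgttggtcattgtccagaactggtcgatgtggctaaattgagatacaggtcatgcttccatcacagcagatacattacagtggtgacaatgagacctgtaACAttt
Gm25791 (chr9:15314845-15314981, plus strand): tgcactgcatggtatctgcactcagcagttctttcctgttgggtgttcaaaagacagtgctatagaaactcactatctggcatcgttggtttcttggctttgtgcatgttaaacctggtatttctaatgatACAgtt
Gm24853 (chr12:81501240-81501360, plus strand): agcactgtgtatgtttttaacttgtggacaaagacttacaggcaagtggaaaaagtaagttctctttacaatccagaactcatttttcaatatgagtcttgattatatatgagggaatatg
Snord104 (chr11:106500993-106501062, plus strand): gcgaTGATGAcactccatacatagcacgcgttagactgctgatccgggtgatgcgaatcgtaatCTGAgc
Snord69 (chr14:31014287-31014366, minus strand): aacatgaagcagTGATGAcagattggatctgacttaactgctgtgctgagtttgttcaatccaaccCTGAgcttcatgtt
Snord89 (chr1:39548745-39548854, minus strand): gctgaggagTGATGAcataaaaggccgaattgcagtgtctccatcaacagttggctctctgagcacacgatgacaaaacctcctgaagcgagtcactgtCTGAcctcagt
Snord100 (chr10:23785750-23785823, minus strand): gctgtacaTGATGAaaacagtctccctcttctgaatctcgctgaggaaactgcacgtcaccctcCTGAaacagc
Snora17 (chr2:26639190-26639321, minus strand): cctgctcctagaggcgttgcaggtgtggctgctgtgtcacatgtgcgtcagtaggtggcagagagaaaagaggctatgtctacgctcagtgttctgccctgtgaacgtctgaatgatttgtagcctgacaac
Gm23609 (chr9:78013972-78014098, minus strand): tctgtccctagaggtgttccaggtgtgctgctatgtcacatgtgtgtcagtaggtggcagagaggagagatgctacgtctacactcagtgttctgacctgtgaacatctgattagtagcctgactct
Gm23698 (chr10:110796173-110796300, plus strand): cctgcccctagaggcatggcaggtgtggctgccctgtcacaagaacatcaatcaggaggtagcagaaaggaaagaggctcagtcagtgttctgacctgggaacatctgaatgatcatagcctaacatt

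The boxes set apart those members whose letters match a known class. Of the 100 sequences, 26 held the C and D pair alone, 24 held the ACA alone, 3 held both and 47 held neither. Among all 1503 GENCODE snoRNA transcripts of 50 to 250 bases, 20.1% held the pair alone, 18.1% the ACA alone and 61.5% neither. Among 7009 other GENCODE transcripts of that length, 0.0713% held the pair alone and 1.93% the ACA alone. Only the given strand was searched, the C motif was searched without its variants, and a match describes letters in the window. Genes named for a class also fell among the 47 with neither: Snord72, Snord88c, Snord91a, Snord98, Snora17, Snora28, Snora47 and Snora81. A sequence with neither can thus still belong to a class. By name, 20 members were Snord (box C/D), 11 were Snora (box H/ACA) and 1 was Scarna9, a guide RNA of the Cajal body. The other 71 had no named class: 67 were Gm models, 2 bore an identifier for a name, and the rest were AF357399 and Rnu73b.

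A family of Snora17-like genes, noticed when the sequences were compared, was the largest group of similar members. Snora17 is a box H/ACA snoRNA gene, and 13 other members matched it end to end at 64.4 to 82.6% identity, while the next member stood at 57.7%. In GENCODE, 601 of 1502 other snoRNA transcripts of 50 to 250 bases, or 40.0%, matched Snora17 at 60% or more. The 13 relatives were 117 to 137 bases long and had 10 to 52 reads each over the 6 libraries, and 2 of them lay inside a host gene. At the same identity of 60%, 49 of the 100 members fell into 15 groups. Some groups joined differently named genes of different hosts, such as Snord58b in Rpl17 and Snord98 in Ccar1. How often unrelated sequences reach that identity was not tested. Reads of near-identical genes could be shared or lost in counting: 10 members had another snoRNA model at 95% identity or more, and none had one at 100%.

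The signal behind these genes was thin. The libraries held 34984951, 38148228 and 34176662 reads assigned to genes in the sedentary group, against 37654913, 28495596 and 31432613 in the control group. All 103 members together took 3671 of 204892963 reads, or 17.9 RPM (reads per 1000000 reads). A member had between 6 and 274 reads over the 6 libraries, with a median of 21. Of the 103, 66 had fewer than 30 reads and 48 fewer than 20, while 8 had 100 or more and held 33.0% of all member reads. A single read was worth 0.345 to 0.474 FPKM in a model of 74 bases and 0.196 to 0.270 FPKM in a model of 130 bases, so that 0.5 FPKM took 2 reads at the shorter length and 2 or 3 at the longer. Of the members, 29 passed the level in all 6 libraries and 45 were at 0 in at least 1 library. Gm26447 reached it in control libraries alone, and no member reached it in sedentary libraries alone.

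The models were 52 to 246 bases long, with a median of 122, and the labels give inserts of 200 to 300 bp, longer than nearly all of them. Reads over a model can come from the mature RNA or from the unspliced host transcript, and the table cannot tell these apart. GENCODE places 18 members over an exon of at least 1 host transcript, the named genes of the run beside Taf1d among them. For these, reads can also come from spliced host RNA. In bulk tissue, fewer cells of a type and less RNA per cell cannot be told apart either. The strand setting of the counting is not stated, so the values of 16 members that lie over a gene of the opposite strand are uncertain.

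Several snoRNAs known as abundant in other tissues were nearly missing from these libraries. The 6 models of Rnu3a and Rnu3b, the U3 snoRNA that acts in cleavage of the ribosomal RNA precursor, had 2 reads in all. Snord118 (U8), Snord14a, Snord14c, Snord14d, Snord14e, Snord22, Snora73a, Snora73b and Snora74a were listed at 0 in all libraries. Snord13 had 7 reads over the 6 libraries, Snord17 had 13 and Snora23 had 8. Other stable small RNAs were low as well: Scarna2 had 12 reads, Terc, the telomerase RNA, 57, Rn7sk, which holds the elongation factor P-TEFb inactive, 59, Rpph1, the RNase P RNA, 24, and Rmrp, the RNA of a related ribonuclease, 2. Snora17 was the panel gene that became a member, with 48 reads.

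The level rule cut through a continuous range. The members just inside, by the third-highest of their 6 values, were Gm24616 at 0.505 FPKM, Gm25428 at 0.526 FPKM and Snord58b at 0.532 FPKM. Snord13, Gm22186 and Gm22358 stood just outside, each at 0.491 FPKM. Members were chosen on their level across both groups and not on the difference between groups.

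Together, the snoRNA genes took a smaller share of the reads in sedentary testes. Their summed RPM, here relative to the library total that the FPKM values imply, was 13.0 to 16.3 in sedentary libraries, mean 15.1 ± 1.80, against 18.4 to 21.6 in control libraries, mean 20.4 ± 1.75 (SD, n = 3 each), a ratio of 0.740. Every sedentary library lay below every control library. Relative to the reads assigned to genes instead, the values were 12.4, 15.9 and 16.2 RPM in sedentary libraries, against 22.5, 18.4 and 22.5 in control libraries, and the groups stayed apart. The 1168 snoRNA genes that did not meet the level rule summed to 3.36 to 4.39 RPM in sedentary libraries and 4.74 to 7.66 in control libraries, again with no overlap.

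**Figure D1:**
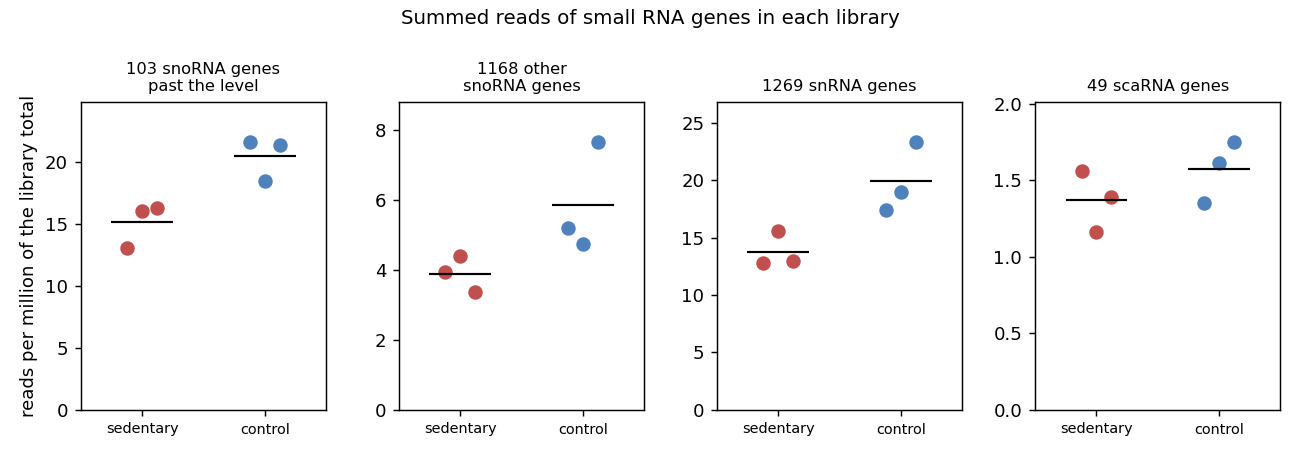
Summed RPM relative to the library total (reads per 1000000; vertical axes from 0) for 4 sets of small RNA genes, with 1 point per library and a line at the group mean, sedentary left of control. The 3 sedentary libraries lay below the 3 control libraries for the 103 snoRNA genes, for the 1168 other snoRNA genes and for the 1269 snRNA genes, and overlapped them for the 49 scaRNA genes.

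Among other classes of short RNA, snRNA genes were also lower. The snRNA genes, whose RNAs build the spliceosome, summed to 12.8 to 15.6 RPM in sedentary libraries and 17.4 to 23.3 in control libraries, with no overlap. The scaRNA genes overlapped, at 1.16 to 1.56 RPM in sedentary libraries and 1.35 to 1.75 RPM in control libraries. The summed miRNA reads were higher relative to the library total, with 251 to 269 RPM in sedentary libraries and 239 to 246 in control libraries. Relative to the reads assigned to genes instead, the miRNA groups overlapped. Sedentary replicate 2 had 9483 miRNA reads of 38148228, a smaller share than the 7932 of 31432613 in control replicate 3. Single miRNA genes leaned lower in the sedentary group: of the 127 tested, 77 were below 0, with a median log2 fold change of -0.16. Relative to the same library total the protein-coding sum was higher too, at 957877 to 997793 RPM in sedentary and 898342 to 949241 in control libraries. That total was below the reads assigned to genes in every sedentary library. It was above them in control replicates 1 and 3 and nearly equal in control replicate 2. The protein-coding gap depends on the total used, and relative to the reads assigned to genes the groups lay much closer together. Summed FPKM of the members was 122 to 152 in sedentary libraries, against 173 to 204 in control libraries. By class, the 20 Snord genes overlapped, at 26.1 to 38.1 summed FPKM in sedentary and 30.6 to 42.0 in control libraries. The 11 Snora genes did not, at 9.97 to 13.7 in sedentary and 14.9 to 17.4 in control libraries. That separation ended without Snora28, at 9.55 to 10.3 summed FPKM in sedentary and 10.2 to 14.0 in control libraries, and without Snora47, at 9.97 to 13.5 in sedentary and 13.2 to 17.1 in control libraries, and each of the 11 genes overlapped on its own. The 71 genes of no named class did not overlap, at 84.5 to 102 in sedentary and 119 to 150 in control libraries, also without any 1 of them.

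Gene by gene, most members were lower in the sedentary group by small amounts, and 1 passed the test. The test was limma on log2(FPKM + 0.5) over all 19201 genes that met the level rule, adjusted by Benjamini-Hochberg, with calls at 0.05; folds on this scale understate changes of low genes. It called 1 of the 103 members lower, Gm24357, and 0 higher, where 0.026% of all tested genes and 0.49% of the 408 other tested genes of 246 bases or less were called lower and 0% of either higher. The voom variant of limma, run on the recovered reads, called 0 members, where it called 1.12% of all tested genes lower and 0.318% higher, and 0.735% of the other short genes lower and 0% higher. At an unadjusted p under 0.05, limma on FPKM had 24 members lower, or 23.3%, where 7.26% of all tested and 15.7% of the other short genes were lower. It had 3 higher, or 2.91%, where 10.1% of all tested and 6.37% of the other short genes were higher. The voom variant had 9 members, or 8.74%, at that unadjusted level in either direction, where 20.2% of all tested and 12.5% of the other short genes stood there.

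The groups did not overlap, with sedentary lower, for 13 members, or 12.6%, where 10.8% of all tested genes and 11.5% of the other short genes stood that way. That share was near both backgrounds, and Gm26447, which reached the level through control libraries alone, is among the 13. The groups did not overlap, with sedentary higher, for Snord89 and Snord100, which is 1.94% of members against 13.7% of all tested genes and 4.41% of the other short genes. The log2 fold change was below 0 for 77 members, or 74.8%, where 47.8% of all tested genes and 62.7% of the other short genes were below 0.

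The median log2 fold change of the members was -0.35, with quartiles of -0.68 and -0.01, beside 0.01 over all tested genes and -0.14 over the other short genes. The median stayed below 0 without the thinnest genes: the 37 members with 30 reads or more had a median of -0.32, with 29 below 0, the 8 with 100 or more had -0.29, and the 29 past the level in every library had -0.28. Across the 103 members the log2 fold change ranked almost independently of reads (Spearman rho -0.07) and of length (rho -0.04). All of these values share the same 6 libraries, and the medians carry no test.

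**Figure D2:**
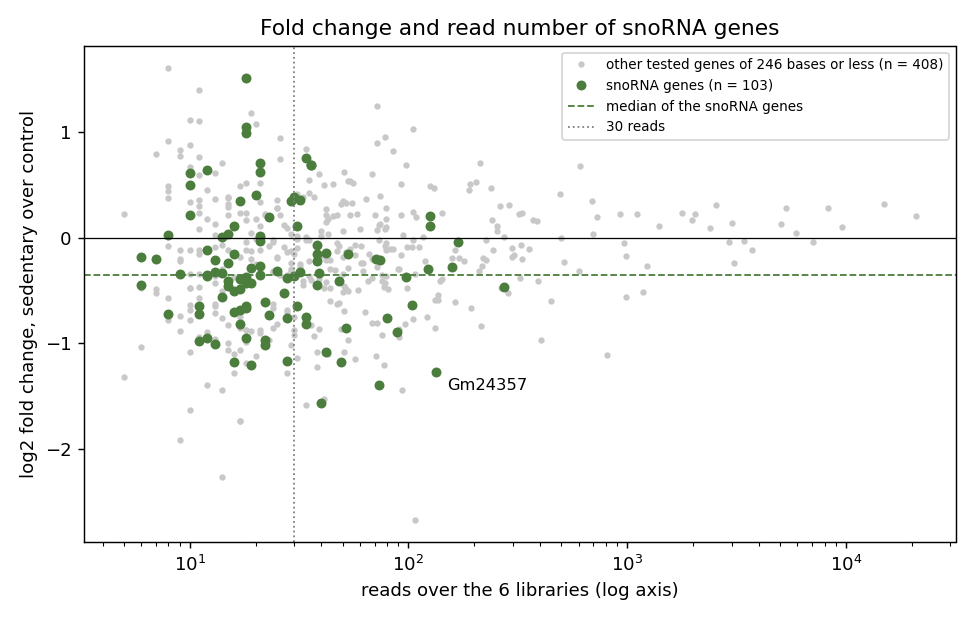
Log2 fold change of FPKM, sedentary over control (vertical axis), against reads over the 6 libraries (log axis), for 103 snoRNA genes in green and 408 other tested genes of 246 bases or less in grey. The dashed line at -0.35 is the median of the snoRNA genes, the dotted line marks 30 reads, and Gm24357 is named.

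Shares below 0 varied between the classes. Of the 20 Snord genes 12 were below 0, with a median of -0.30, and of the 11 Snora genes 8, with a median of -0.41. Of the 71 genes of no named class 56 were below 0, with a median of -0.37. Sorted by sequence instead, the 29 members with the C and D pair had a median of -0.21 with 18 below 0, the 24 with the ACA alone -0.37 with 20 below 0, and the 47 with neither -0.41 with 36 below 0. The 14 genes of the Snora17 family had a median of -0.39, with 11 below 0 and 4 of them, Gm23592, Gm23609, Gm23698 and Gm24120, lower in every sedentary than in every control library. Over all tested genes 47.8% were below 0 and 10.8% lower with no overlap, and over the other short genes 62.7% and 11.5%. The family's summed level was 12.03, 9.43 and 8.93 FPKM in sedentary libraries, against 14.2, 14.0 and 16.9 FPKM in control libraries, with no overlap. That separation ended without Gm23698, the gene of the family with the most reads. It had 0.937 FPKM in sedentary replicate 1 and 3.19 FPKM in control replicate 1. Snora17 itself overlapped, at 2.27, 0.601 and 1.79 FPKM in sedentary libraries and 1.74, 2.66 and 1.83 FPKM in control libraries, with a log2 fold change of -0.41 (adjusted p 0.521 by limma). That value was -0.015 without sedentary replicate 2 and -0.68 without sedentary replicate 1.

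**Figure D3:**
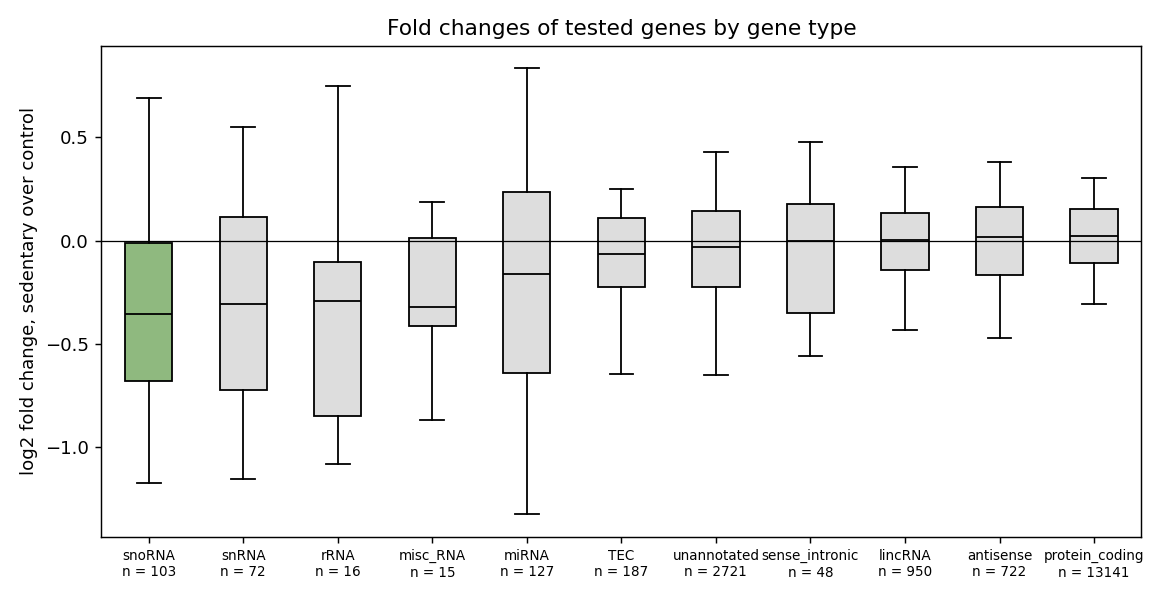
Log2 fold change, sedentary over control, of all tested genes by the type the table gives them; boxes span the quartiles, the line is the median and whiskers reach the 5th and 95th percentiles. Medians were -0.35 for snoRNA, -0.31 for snRNA, -0.29 for rRNA and -0.32 for misc_RNA, and 0.02 for protein-coding genes.

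Other gene types made of short models also had medians below 0. The 72 tested snRNA genes had a median log2 fold change of -0.31 with 52 below 0, the 16 rRNA genes -0.29 with 14 below 0, and the 15 misc_RNA genes -0.32 with 11 below 0. The 127 miRNA genes stood at -0.16. Long types stood near 0, with 0.01 for lincRNA, 0.02 for antisense and 0.02 for protein-coding genes. No test of a difference between these medians was made.

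The densest set of members, and the one with the called gene, was a run of 7 on chromosome 9 between Taf1d, which encodes a subunit of the RNA polymerase I factor SL1, and Cep295, which encodes a centriole protein. In humans TAF1D is known as a snoRNA host gene. In the deposited table, whose genome build is not settled, the 7 lay on the plus strand from 12697053 to 12700291, 3239 bases that began 1697 bases after the end of the Taf1d model and ended 106 bases before Cep295. Another snoRNA gene of that interval, Gm25500, had 5 reads and did not meet the level rule. GENCODE places the 5 with a symbol inside Taf1d, over an exon of at least 1 of its transcripts. The 7 held 660 reads, or 17.98% of all member reads, and their median log2 fold change was -0.38, with all 7 below 0 and 3 lower with no overlap between the groups. Over all tested genes 47.8% were below 0 and 10.8% lower with no overlap, and over the other short genes 62.7% and 11.5%.

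Gm24357, a model of 74 bases with C and D boxes in the cluster, had 5.67, 5.36 and 3.99 FPKM in sedentary libraries, against 13.1, 11.9 and 13.0 FPKM in control libraries. Those values rest on 14, 15 and 10 reads in sedentary libraries and 38, 25 and 32 reads in control libraries. All 3 sedentary libraries were far below all 3 control libraries. It fell by 1.27 on the log2 scale (SE 0.13, adjusted p 0.0276 by limma). On reads, voom gave -1.32 on the log2 scale, adjusted p 0.0731. Leaving out any 1 library kept the log2 fold change between -1.36 and -1.13 but ended the call, with adjusted p values of 0.0678 to 0.154.

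None of its neighbours passed the test. Gm22620, with an ACA, had 1.35, 0 and 0.444 FPKM in sedentary libraries and 1.73, 2.11 and 3.40 FPKM in control libraries, on 40 reads in all, with a log2 fold change of -1.57 (SE 0.43, adjusted p 0.206 by limma). Its sedentary libraries were all lower, 1 of them at 0. Gm25791, also with an ACA and 97.8% identical to Gm26236, had 0.656, 0.579 and 0.215 FPKM in sedentary libraries and 0.931, 0.768 and 1.76 FPKM in control libraries on 23 reads (log2 fold change -0.73, adjusted p 0.232 by limma). That value was -0.48 without control replicate 3. Its groups did not overlap, by a margin worth under 1 read.

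The other 4 genes of the run overlapped between the groups. Gm24455 had 1.602, 2.62 and 5.63 FPKM in sedentary libraries and 3.70, 4.02 and 4.14 FPKM in control libraries. Gm24299, a box C/D model, had 7.18, 3.72 and 3.32 FPKM in sedentary libraries and 6.47, 5.93 and 3.82 FPKM in control libraries. MGP_C57BL6NJ_G0040031 had 5.40, 7.14 and 11.2 FPKM in sedentary libraries and 9.95, 4.56 and 10.3 FPKM in control libraries. The sedentary libraries spread more than the control libraries in Gm24455, where the highest and the lowest value were both sedentary. MGP_C57BL6NJ_G0040032 had 2.25, 3.18 and 6.88 FPKM in sedentary libraries and 6.33, 5.01 and 3.17 FPKM in control libraries. Sedentary replicate 3 was the highest sedentary library in Gm24455 and both unnamed genes, and the lowest in Gm24299, Gm25791 and Gm24357.

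Taf1d itself had 9.49, 13.8 and 9.47 FPKM in sedentary libraries, against 13.4, 13.0 and 14.3 FPKM in control libraries. Sedentary replicate 2 lay among the controls and the other 2 below them, with a log2 fold change of -0.32 (adjusted p 0.29 by limma). Summed over the 7 genes of the run, the level was 22.6 to 31.7 FPKM in sedentary libraries and 34.3 to 42.2 FPKM in control libraries, with no overlap, while the RPM sums overlapped, at 2.22 to 3.39 RPM in sedentary libraries and 3.33 to 4.11 RPM in control libraries. Without Gm24357 the FPKM sums overlapped as well, at 17.3 to 27.7 FPKM in sedentary and 22.4 to 29.1 FPKM in control libraries. Without the whole run, the other 96 members still summed to 10.8 to 13.8 RPM in sedentary libraries and 15.1 to 17.5 in control libraries, with no overlap.

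**Figure D4:**
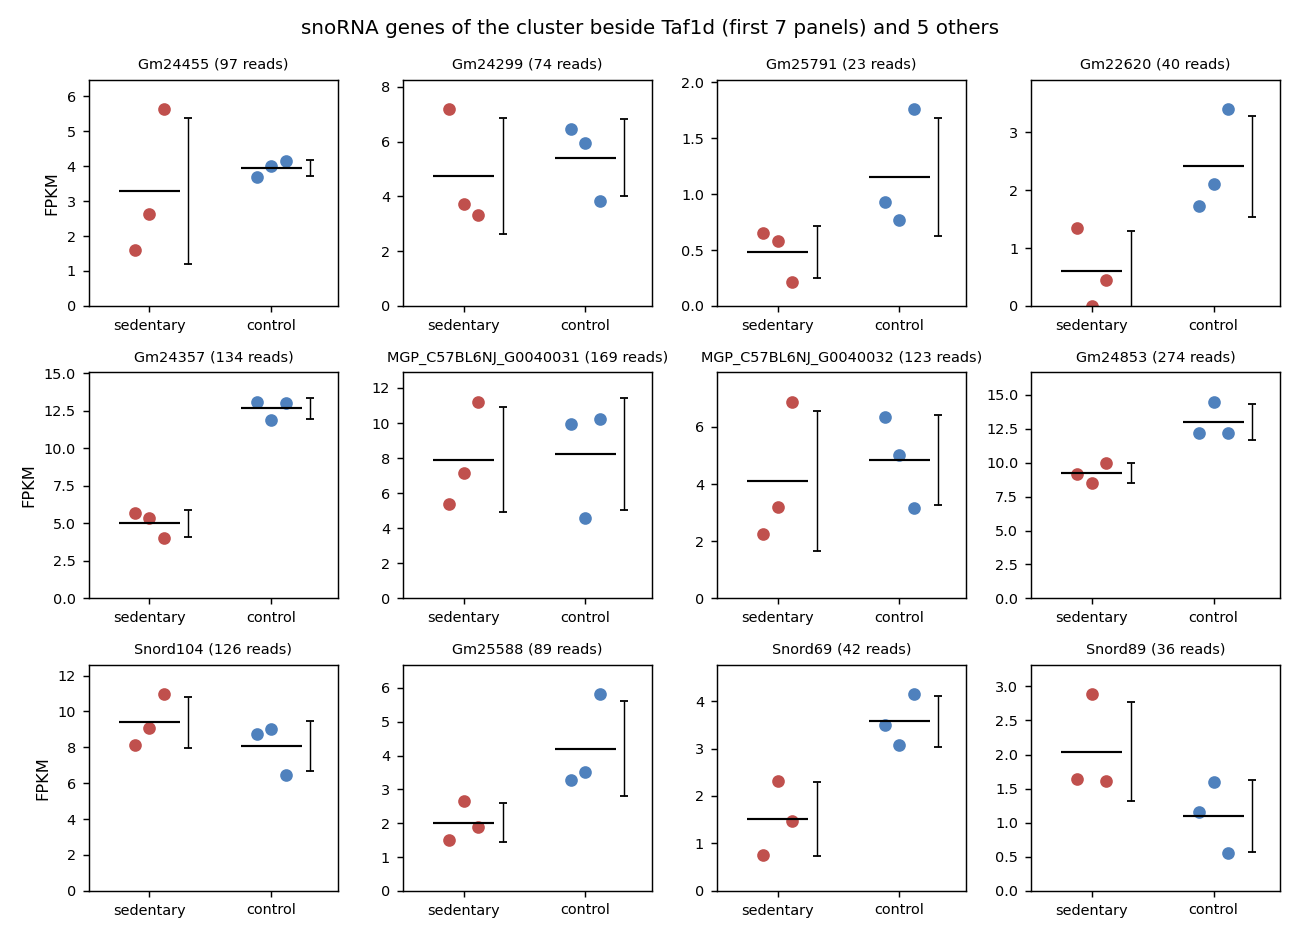
FPKM per library (points), group mean (line) and SD (bar beside the points, n = 3), sedentary left of control, for the 7 described snoRNA genes of the run between Taf1d and Cep295 and for Gm24853, Snord104, Gm25588, Snord69 and Snord89; each axis starts at 0 and each title gives the reads over 6 libraries. Gm24357 shows the widest gap, with 3.99 to 5.67 FPKM in sedentary and 11.9 to 13.1 FPKM in control libraries.

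Outside the cluster, Gm24853 carried the most reads, 274. It had 9.17, 8.52 and 10.0 FPKM in sedentary libraries, against 12.2, 14.5 and 12.2 FPKM in control libraries, a log2 fold change of -0.47 (SE 0.10, adjusted p 0.199 by limma). Every sedentary library was lower than every control library. The gene has a copy, Gm25909, at 97.5% identity and lies over Gm20498 on the opposite strand, so its reads are uncertain.

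The remaining members with 100 reads or more overlapped between the groups. Gm22890 had 5.62, 4.41 and 3.89 FPKM in sedentary libraries and 6.73, 3.66 and 7.33 FPKM in control libraries. Snord104 had 8.14, 9.07 and 10.96 FPKM in sedentary libraries and 8.75, 9.02 and 6.46 FPKM in control libraries, with a log2 fold change of 0.21 (SE 0.15, adjusted p 0.485 by limma), or 0.066 without control replicate 3. Gm24900 had 4.47, 5.53 and 4.18 FPKM in sedentary libraries and 3.62, 4.71 and 4.72 FPKM in control libraries. Snord104 and Gm24900 were the only members with 100 reads or more whose log2 fold change was above 0. Snord91a, in an intron of Tsr1, a ribosome maturation factor, had 2.26, 3.98 and 6.35 FPKM in sedentary libraries and 8.78, 4.91 and 5.84 FPKM in control libraries, with a log2 fold change of -0.64 (SE 0.32, adjusted p 0.336 by limma). That value was -0.30 without sedentary replicate 1 and -0.96 without sedentary replicate 3.

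Among members with 30 to 99 reads, several were lower in all sedentary libraries without passing the test. Gm25588, in an intron of Shcbp1l, had 1.499, 2.64 and 1.90 FPKM in sedentary libraries, against 3.28, 3.51 and 5.81 FPKM in control libraries (log2 fold change -0.89, SE 0.23, adjusted p 0.203 by limma). Gm23698, of the Snora17 family and over 1700020G17Rik on the other strand, had 0.937, 1.24 and 1.61 FPKM in sedentary libraries, against 3.19, 2.47 and 2.36 FPKM in control libraries (log2 fold change -0.85, SE 0.17, adjusted p 0.199 by limma). Neither pair of groups overlapped. Snord69, a box C/D gene within Gnl3, which encodes the nucleolar protein nucleostemin, had 0.749, 2.31 and 1.48 FPKM in sedentary libraries, against 3.51, 3.07 and 4.15 FPKM in control libraries (log2 fold change -1.09, SE 0.27, adjusted p 0.199 by limma).

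Gm23592, also of the Snora17 family, had 1.02, 1.36 and 0.504 FPKM in sedentary libraries, against 1.53, 2.40 and 1.80 FPKM in control libraries, with a log2 fold change of -0.75 (adjusted p 0.21 by limma). Gm22806, an ACA model in an intron of Cks2, a cell-cycle kinase subunit gene, with a copy at 97.1% identity, had 1.32, 2.14 and 2.39 FPKM in sedentary libraries, against 4.31, 2.32 and 4.43 FPKM in control libraries, a log2 fold change of -0.76. Its groups overlapped through 1 control library. Snora28, singled out after its values were seen as the Snora gene with the most reads, 73, lies in Eif5, a translation initiation factor gene. It had 0.944, 0.416 and 3.49 FPKM in sedentary libraries, against 3.41, 4.14 and 4.75 FPKM in control libraries, a log2 fold change of -1.39 (SE 0.45, adjusted p 0.215 by limma). Sedentary replicate 3 lay just above the lowest control library, and the other sedentary libraries lay far below.

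The values higher in every sedentary library belonged to a pair of box C/D genes. Snord89, inside the non-coding gene Gm15832, had 1.64, 2.89 and 1.61 FPKM in sedentary libraries, against 1.16, 1.595 and 0.548 FPKM in control libraries. Its groups were apart by a small margin, with a log2 fold change of 0.69 (SE 0.28, adjusted p 0.264 by limma) on 36 reads, or 0.41 without control replicate 3. Snord100, singled out after its values were seen, had 1.22, 2.50 and 1.99 FPKM in sedentary libraries, against 0.345, 0 and 0.815 FPKM in control libraries. Its log2 fold change was 1.51 (SE 0.35, adjusted p 0.199 by limma), the highest of the members, on 18 reads.

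Several host genes held more than 1 member, and no difference between members of a host was tested. Snord100 shares Rps12, which encodes a protein of the small ribosomal subunit, with Snora33 and Gm23130. Snora33 had 0.232, 1.44 and 1.601 FPKM in sedentary libraries and 0.593, 0.272 and 0.467 FPKM in control libraries, a log2 fold change of 0.62, which ran from 0.35 without sedentary replicate 3 to 1.11 without sedentary replicate 1. Gm23130 had 2.03, 2.50 and 1.595 FPKM in sedentary libraries and 4.48, 0.474 and 3.26 FPKM in control libraries, a log2 fold change of -0.07. Both overlapped between the groups. Rps12 itself had 380, 402 and 412 FPKM in sedentary libraries, against 351, 355 and 371 FPKM in control libraries, with a log2 fold change of 0.15 (adjusted p 0.314 by limma).

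All 3 members in Rpl4, a gene of the large subunit with a log2 fold change of 0.03, were below 0. Gm22455 had 1.69, 1.49 and 0.831 FPKM in sedentary libraries, against 2.16, 2.97 and 2.55 FPKM in control libraries. All its sedentary values were lower (log2 fold change -0.76, adjusted p 0.205 by limma, 28 reads). The other Rpl4 members, Gm23136 and Gm22571, overlapped, with log2 fold changes of -0.61 and -0.43. In 2410006H16Rik, a host with a log2 fold change of 0.16 and no main protein product, Snord49a stood at 0.36, Snord49b at -0.03 and Snord65 at 0.50, all overlapping. Leaving out 1 library moved Snord49a between 0.16 and 0.66. In Rpl17, at 0.13, Gm23301 stood at 0.11, Gm26202 at 0.22 and Snord58b at -0.34, all overlapping and each on 16 reads or fewer.

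The 50 tested host genes as a group were not lower. Taf1d, at a log2 fold change of -0.32, is not among them, since the run beside it lies outside its model in the deposited table. The lowest of the 50 stood at -0.25. Of the 103 members, 68 lay inside a host of the same strand, 60 of them in protein-coding hosts, and these were 52 different genes. For the 66 members with a tested host, the Pearson correlation of the member's and the host's log2 fold change was 0.13 and Spearman's rho 0.19; both values of a pair come from the same libraries, and several members share a host. For the 19 with 30 reads or more rho was 0.10. The 50 hosts had a median log2 fold change of 0.07, with 16 below 0, and limma called none of them on FPKM or, as voom, on reads. Of the 66 members 50 were lower than their host, with a median difference of -0.41, and for 32 the member was below 0 and the host above 0.

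**Figure D5:**
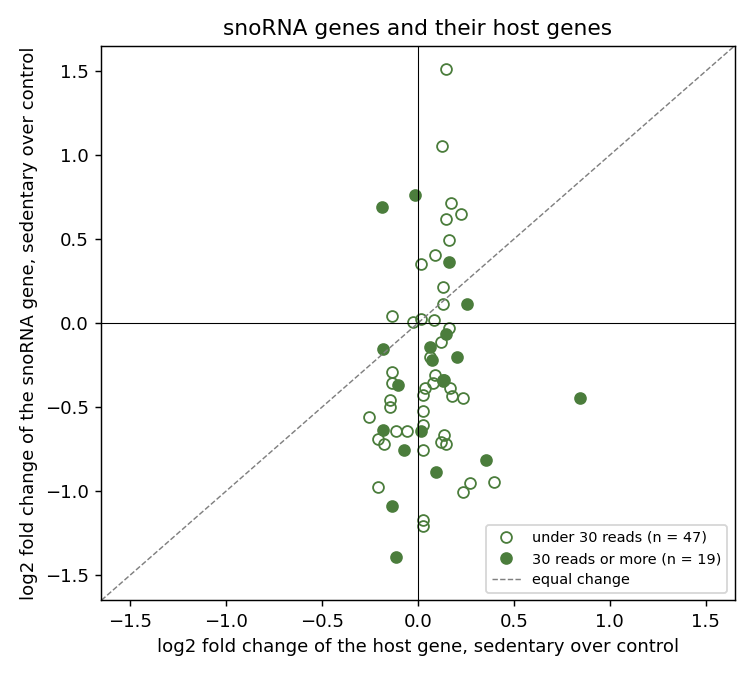
Log2 fold change of 66 snoRNA genes (vertical axis) against that of their host genes (horizontal axis), both sedentary over control; filled points are the 19 with 30 reads or more and the dashed line marks equal change. Hosts cluster around their median of 0.07 while the snoRNA genes spread from -1.39 to 1.51.

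These 66 members reached a median of 2.62% of their host's FPKM, with a range of 0.176 to 157%, and 2 of them, Snord91a and Snora78, stood above their hosts. Not counted are Snord89 and Snord7, whose hosts Gm15832 and AA465934 did not meet the level rule. Snord89 also stood above its host, since Gm15832 had a mean of 0.327 FPKM in sedentary and 0.281 FPKM in control libraries. The 21 members in ribosomal protein genes had a median log2 fold change of -0.11 with 12 below 0. Members with any host had -0.36 and members without a host, Gm24357 among them, -0.32. By GENCODE, the 18 members over an exon of a host had -0.48 with 15 below 0. The 58 in an intron had -0.36 with 42 below 0. Over all tested genes 47.8% were below 0, and over the other short genes 62.7%.

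Genes of the snoRNA machinery had 0 calls by limma on FPKM and 0 on reads, where 0.026% and 1.12% of all tested genes were called lower. Snu13 was not matched by name and was not examined. Fbl, the methyltransferase fibrillarin, had 35.2, 33.1 and 39.3 FPKM in sedentary libraries, against 32.4, 33.0 and 29.5 FPKM in control libraries, higher in each by a narrow margin (log2 fold change 0.18, adjusted p 0.33 by limma). Nop10 had 84.8, 79.8 and 80.97 FPKM in sedentary libraries, against 77.1, 74.1 and 69.4 FPKM in control libraries (log2 fold change 0.15, adjusted p 0.299 by limma). Nhp2 stood at 0.33, Gar1 at 0.20, Nop56 at -0.09, Nop58 at -0.07 and Dkc1, the pseudouridine synthase dyskerin, at -0.02. None of these passed at an adjusted p of 0.05.

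The wider lists also held no call. Of 22 tested factors of snoRNA-protein assembly and maturation, 7 were below 0 with a median log2 fold change of 0.07. Of 34 tested factors of ribosomal RNA processing, 16 were below 0 with a median of 0.04. Of 51 protein-coding snoRNA hosts on a general list, 15 were below 0 with a median of 0.08, and of 13 hosts without a main protein product, 6 were below 0 with a median of 0.01. Among the last, Gas5 stood at -0.01, Snhg1 at 0.22 and Snhg11 at -0.39. All these medians lie beside 0.01 for all tested genes.

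Summed levels of the Sertoli, spermatid and spermatogonia marker lists were higher in every sedentary library than in every control library. So was the epididymis list sum, which rests mainly on 1 gene. The summed RPM of protein-coding genes was also higher throughout, at 957877 to 997793 in sedentary and 898342 to 949241 in control libraries. As said above, that gap depends on the library total used, and FPKM sums share the same total. Summed spermatid markers (protamines and transition proteins among them) were high in every library, at 27025 to 29419 FPKM in sedentary libraries and 21010 to 24987 FPKM in control libraries. Summed Sertoli markers were 720 to 839 FPKM in sedentary libraries and 575 to 637 FPKM in control libraries, with 12 of 12 above 0. Peritubular markers had 6 of 6 below 0, at 65.1 to 88.7 FPKM in sedentary and 82.1 to 106.7 FPKM in control libraries. Leydig markers had 8 of 9 below 0, at 967 to 1395 FPKM in sedentary and 1090.5 to 1543 FPKM in control libraries. Spermatogonia markers summed to 62.7 to 68.2 FPKM in sedentary libraries and 53.9 to 61.7 FPKM in control libraries. This gap was narrow, with 3 of 7 below 0 and a median log2 fold change of 0.01. The epididymis list summed to 344 to 357 FPKM in sedentary and 303 to 322 FPKM in control libraries, nearly all of it Spink2, the only one of its 8 genes that met the level rule. That sum describes 1 gene and not epididymal tissue. Of the other lists, spermatocyte markers had 6 of 7 below 0 and macrophage markers 3 of 7. The sums of both lists overlapped between the groups. Spermatocyte markers summed to 806 to 853 FPKM in sedentary and 723 to 832 FPKM in control libraries, and macrophage markers to 26.5 to 40.3 FPKM in sedentary and 15.6 to 42.4 FPKM in control libraries. Over all tested genes 47.8% were below 0. limma on FPKM called none of these markers, where it called 0.026% of all tested genes lower and 0% higher. The voom variant on reads called 6: Cst9 and Amhr2 of the Sertoli list and Tnp2 and Prm2 of the spermatid list higher, and Star of the Leydig list and Sycp2 of the spermatocyte list lower. Over all tested genes voom called 1.12% lower and 0.318% higher. The log2 fold changes by voom were 0.35 for Cst9, 0.48 for Amhr2, 0.43 for Tnp2, 0.34 for Prm2, -0.70 for Star and -0.46 for Sycp2, with adjusted p of 0.0148 to 0.046. The part of cell composition in the snoRNA values was not tested.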

How the data were processed

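A single table was deposited, in which the authors give FPKM for each of 44065 genes and 6 libraries beside the gene's name, type, length and position. The submitters' processing notes name HISAT2, StringTie and DESeq2 and the builds mm10 and mm39, without roles or versions, so the build of the table is not settled. Each FPKM multiplied by its gene length was a whole number of steps of 1 size per library (100% of values, tolerance 0.001), which gave back whole reads. Both mates of a pair may be counted, so reads are not independent molecules.

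Genes of type snoRNA that reached 0.5 FPKM in 3 or more of 6 libraries were taken. limma 3.58.1 (R 4.3.3, variance trend) compared sedentary with control on log2(FPKM + 0.5) over all 19201 genes at that level, two-sided, with Benjamini-Hochberg adjustment. The script was tested on simulated data. A host was the smallest gene on the same strand whose span contains the snoRNA gene. Identity between sequences was 1 minus the edit distance over the longer length. Alternatives were voom on reads, other pseudocounts, filters and scalings, sample weights, a replicate block and leaving out each library. Genes were named if they passed the test, were among the 12 with the most reads, or had 30 reads or more and groups that did not overlap; genes of a fixed panel and of hosts with several members were added, and exceptions are stated. Members and lists were chosen with earlier results of these data known. The labels give no batch.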

Additional observations from a re-analysis of the deposited data

How the results depend on the processing

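The member count fell to 0 of 103 with voom on reads, without a filter, with a replicate block and when any 1 library was left out (0 to 0), and held at 1 under the other settings run. Gm24357 kept its direction in all 15 other fits, between -1.38 and -1.13 on the log2 scale, and passed in 6 of them; its adjusted p was 0.0731 with voom, 0.101 without a filter and 0.057 with the replicate block. The members' median was -0.49 with voom and -0.53 with a pseudocount of 0.1, -0.26 with a pseudocount of 1, and -0.41 to -0.29 when 1 library was left out. Scaling to TPM moved the median of all genes to -0.09 and that of the members to -0.41. Over all genes the count of 5 became 277 with voom (61 higher, 216 lower), 3 with a filter at 1 FPKM, 1 with no filter, 16 with array weights, 0 with the replicate block and 0 to 2 when 1 library was left out. The replicate numbers showed no sign of pairing: libraries with the same number correlated at -0.07, -0.09 and -0.03 in their deviations from the group means. Libraries with unlike numbers correlated at -0.03 to 0.09. Such deviations sum to 0 within each group, so these values cannot exclude a pairing. Signs reversed for Gm23130 with a pseudocount of 0.1 (0.028), Gm23301 with a pseudocount of 1 (-5.8e-05), Snord49b with quantile normalization (0.039) and Gm26202 with array weights (-0.055). Leaving out 1 library reversed MGP_C57BL6NJ_G0040031 (-0.39 to 0.19), MGP_C57BL6NJ_G0040032 (-0.70 to 0.011), Snord49b (-0.37 to 0.21), Snord58b (-0.90 to 0.24), Gm23130 (-0.78 to 0.39), Gm23301 (-0.63 to 0.73), Gm26202 (-0.22 to 0.46), Gm24900 (-0.0060 to 0.18) and Gm22571 (-1.27 to 0.18). Of the 31 genes followed under these settings, 21 moved by over 1.5 times when some 1 library was left out, the 9 that reversed and Snora17 (-0.68 to -0.015), Snord91a (-0.96 to -0.30), Snord104 (0.066 to 0.30), Snord65 (0.060 to 0.88), Gm23136 (-0.98 to -0.29), Snord89 (0.41 to 0.91), Snora33 (0.35 to 1.11), Snord49a (0.16 to 0.66), Gm25791 (-0.90 to -0.48), Gm24455 (-0.80 to -0.024), Gm24299 (-0.53 to -0.023) and Gm22890 (-0.56 to -0.11). The summed level of the 11 Snora genes, sedentary minus control, was -4.53 FPKM, -2.05 FPKM without Snora28 and -3.78 FPKM without Snora47, both chosen after the data were seen. The causes were not tested. Members had a median of 21 reads, and which sizes of difference that depth can show was not tested.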

Other observations

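Scarna9 and its neighbour Gm24339, both with C and D boxes and both inside Cep295, were low in the table. Scarna9 had 0, 0.756 and 0.422 FPKM in sedentary libraries, against 0.729, 1.504 and 1.29 FPKM in control libraries, a log2 fold change of -0.98 with an adjusted p of 0.221 by limma. Gm24339 had 0.394, 1.04 and 0.777 FPKM in sedentary libraries, against 1.01, 1.85 and 1.59 FPKM in control libraries, a log2 fold change of -0.69 with an adjusted p of 0.223 by limma. Both overlapped between the groups through sedentary replicate 2. In Hspa9, the gene of a mitochondrial chaperone, Gm22200 stood at -1.17 on the log2 scale on 16 reads, with an adjusted p of 0.218 by limma and no overlap. Gm26109 stood at -1.21 on 19 reads, with an adjusted p of 0.219 by limma, and its groups overlapped, at 0.428, 0.378 and 0.843 FPKM in sedentary libraries and 0.729, 2.01 and 3.88 FPKM in control libraries. These 4 genes were singled out after their values were seen.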
